A study of Mus musculus with 16 samples.

Results

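The 10 genes described here move cholesterol into, through and out of intestinal cells, or belong to the liver X receptor (LXR) circuit that responds to sterols. They are Npc1l1, Scarb1, Soat2, Abcg5, Abcg8, Abca1, Abcg1, Nr1h3, Nr1h2 and Mylip, and they were taken by symbol from the 55359 gene rows of the count table. All 10 were found once and all 10 passed the low-count rule in each of the 5 comparisons. The libraries came from ileum and duodenum of adult male C57BL/6N mice kept on a high fat diet, and tissue was taken 5 weeks after tamoxifen. Mutant mice were Neurog3f/f; Villin-CreERT2, with floxed Neurog3 alleles and a tamoxifen-activated recombinase under the Villin promoter, which is active throughout the intestinal epithelium. Control mice were Neurog3f/f without the recombinase, and all animals shared the floxed alleles, the sex, the strain and the diet. There were 4 mice per genotype, here called M136, M167, M168 and M177 (mutant) and C133, C134, C151 and C154 (control), and each gave 1 library per tissue. Neurog3 is the transcription factor that starts enteroendocrine differentiation, and the study compared intestine without and with these hormone-secreting cells.

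Cholesterol enters the enterocyte from the gut lumen through NPC1L1, is esterified by SOAT2 for packing into lipoproteins, and is pumped back into the lumen by the ABC transporters ABCG5 and ABCG8, which work as a pair. ABCA1 and ABCG1 instead pass cholesterol to lipid-poor apolipoprotein A-I and to high density lipoprotein (HDL), and in the enterocyte ABCA1 sits on the basolateral side. LXRα (Nr1h3) and LXRβ (Nr1h2) bind oxysterols, pair with the retinoid X receptor and raise transcription of Abcg5, Abcg8, Abca1, Abcg1 and Mylip. MYLIP is a ubiquitin ligase that marks lipoprotein receptors for degradation.

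The libraries held 40.9 to 67.2 M counts. Neurog3 had 1 count over the 4 mutant ileum libraries against 201 over the control ileum libraries, and 1 count in mutant duodenum against 549 in control duodenum. Absorptive enterocyte markers were present in all libraries, and the sum of ileal enterocyte markers was 1026 to 2772 counts per M (CPM) in ileum against 109.2 to 218.9 CPM in duodenum, so the tissue labels held. Several libraries stood apart from others of their group. Exocrine pancreas genes summed to 190908 and 185772 CPM in the duodenum of M167 and M177, 8596 and 42328 CPM in that of M136 and M168, and 72.6 to 31114 CPM in control duodenum. B cell and follicle genes reached their highest sums in control ileum of C134 and C154 (up to 175.4 CPM), against 8.82 and 11.7 CPM in C133 and C151. The comparisons were therefore also run without these pairs of mice.

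Promoter sequences were available for 7 of the 10 genes, in RefSeq's GRCm38.p6 annotation. The stretch between the start sites of Abcg5 and Abcg8 is shown because the genes are transcribed away from each other across only 109 bases, and their levels moved together in these libraries. It lies at chr17:84683012-84683120 and is written on the strand of Abcg8. There were 2 promoter windows for Abcg8, and the stretch ends at the start site of only 1 of them. The capitals mark TTATCT, the reverse complement of AGATAA, the letters read by GATA factors, and they begin 17 and 47 bases from the Abcg5 start site.
Abcg5 to Abcg8: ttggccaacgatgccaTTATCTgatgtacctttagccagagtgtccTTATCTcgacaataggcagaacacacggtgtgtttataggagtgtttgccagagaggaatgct
AGATAA on either strand was found in 11.2% of 32851 promoters of 300 bases (250 before to 50 after a start site), and 3 or more copies in 0.107%. The Abcg5 window and the Abcg8 window that takes in the printed stretch overlap, and each held 3 copies. The other of the 2 Abcg8 windows and those of the other 5 members held none.

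The 250 bases before the Abca1 start site, chr4:53159896-53160145 on the minus strand, are shown because Abca1 is a much studied LXR target and was among the members that fell most in mutant ileum. The capitals mark the reverse complement of GGTTA and CGGTCA with 4 bases between them, a pair of receptor half-sites, and the match begins 67 bases before the start site.
Abca1: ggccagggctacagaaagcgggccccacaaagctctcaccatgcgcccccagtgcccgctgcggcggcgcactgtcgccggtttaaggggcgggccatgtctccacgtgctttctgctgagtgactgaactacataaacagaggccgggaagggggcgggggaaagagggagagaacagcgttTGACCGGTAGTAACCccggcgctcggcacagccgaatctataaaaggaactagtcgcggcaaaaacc
These letters were chosen for Abca1, so their match there was fixed by the choice, and they were present in 4 of the 32851 promoters (0.0122%). The textbook repeat, AGGTCA followed by AGGTCA after 4 bases, on either strand, was present in 5 promoters (0.0152%) and in none of the members' windows. The letters TATAAA on either strand were found in 13.6% of promoters and in those of Abca1, Mylip and Abcg5. For Abcg8 they were found only in the window that takes in the stretch printed above. The matches of Abcg5 (at -84 from its start site) and Abcg8 (at -31) are the same bases, read on opposite strands. In this table a match describes letters only, and binding was not measured.

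Per kilobase of exon, Npc1l1 was by far the most abundant of the 10 transcripts, at a mean of 91.2 CPM per kb in mutant ileum, 144.4 in control ileum, 123.3 in mutant duodenum and 131.8 in control duodenum. Abcg5 was next in control duodenum, at 93.4 CPM per kb. At the other end Abcg1 had 1.07 and 2.48 CPM per kb in mutant and control ileum, and Scarb1 had 1.26 and 1.35. Abcg5, Abcg8, Nr1h3 and Nr1h2 were highest in control duodenum, where no library overlapped with mutant duodenum, and lowest on average in mutant ileum. Abca1, Abcg1 and Mylip were highest in control ileum, where no library overlapped with any other group. Npc1l1 and Soat2 overlapped between each group and the next in order of mean, and Scarb1 separated by tissue but not by genotype.

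**Figure D1:**
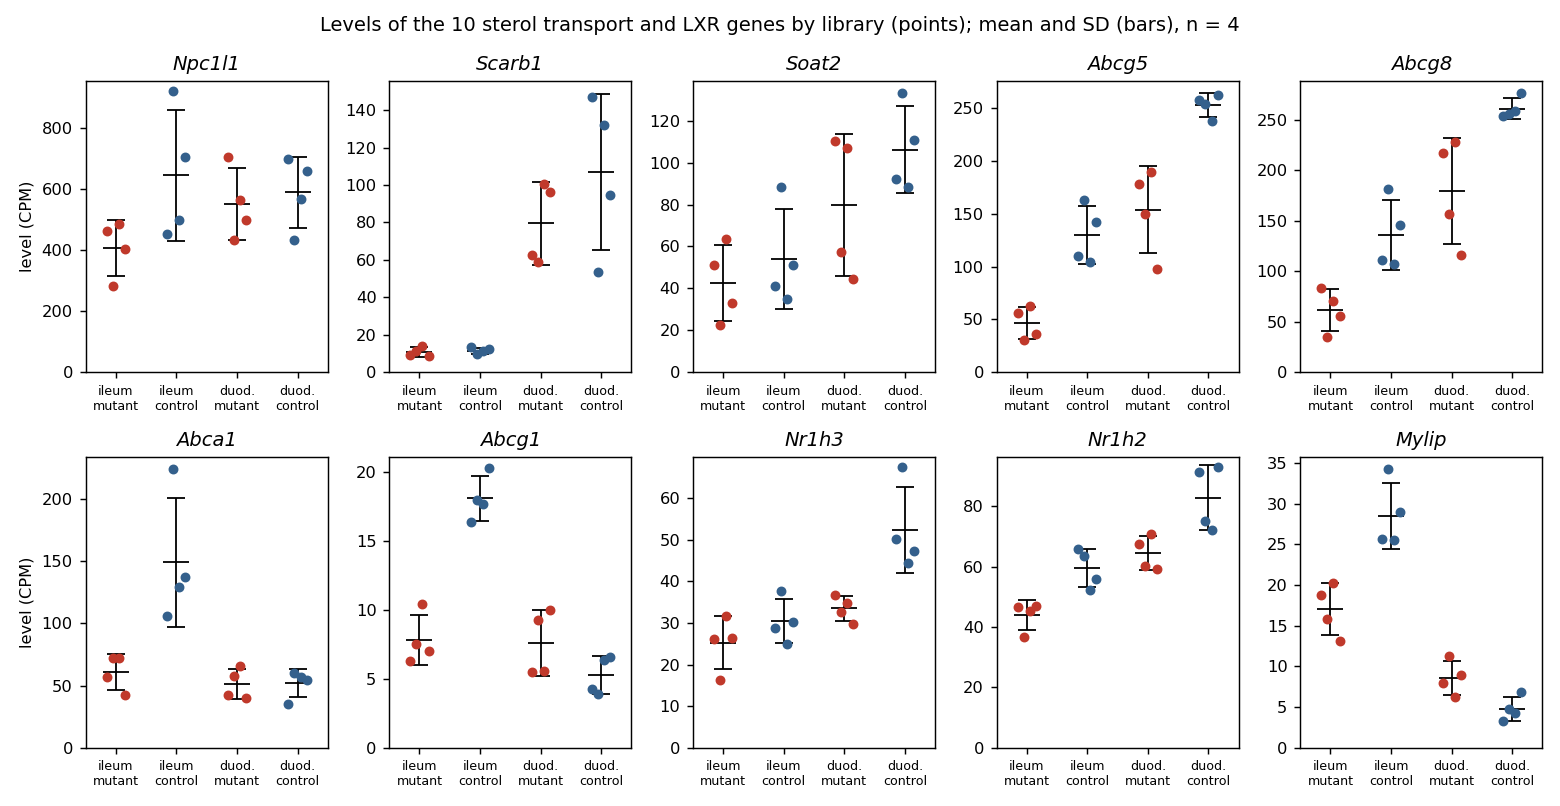
Levels in CPM of the 10 genes in each of the 16 libraries (points), with the mean and SD of each group of 4 (bars), mutant in red and control in blue, ileum left of duodenum. Abcg1 stood at 6.33 to 10.4 CPM in mutant ileum, below all control ileum libraries at 16.4 to 20.3 CPM, while the duodenum groups overlapped.

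In mutant ileum 6 of the 10 genes were lower than in control ileum and none was higher. They were both luminal efflux pumps (Abcg5 and Abcg8), both HDL-directed exporters (Abca1 and Abcg1), LXRβ (Nr1h2) and Mylip. The uptake genes Npc1l1 and Scarb1, the esterifying enzyme Soat2 and LXRα (Nr1h3) did not pass the test. Over all tested genes 14.6% were called lower in this comparison and 33.6% were called in either direction, by edgeR's quasi-likelihood test at a Benjamini-Hochberg adjusted p under 0.05. At an unadjusted p under 0.05 edgeR had 7 lower and 0 higher, as did DESeq2 after adjustment, and limma-voom called 6 lower and 0 higher. The median log2 fold change of the 10 genes was -0.68, against -0.03 over all tested genes. These are whole-tissue RNA samples, in which fewer cells of a type and less RNA per cell cannot be told apart.

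Abcg5 (ENSMUSG00000040505), one partner of the sterol pump of the brush border, had 56.0, 30.5, 62.4 and 36.1 CPM in the ileum of M136, M167, M168 and M177, against 109.7, 162.7, 104.3 and 141.9 CPM in that of C133, C134, C151 and C154. Every mutant library was below every control library. The mean was 46.3 ± 15.3 CPM in mutant and 129.6 ± 27.6 CPM in control ileum (SD, n = 4 each), a log2 fold change of -1.46 (SE 0.25, edgeR adjusted p = 0.00270). Abcg8 (ENSMUSG00000024254), the other partner, had 83.5, 35.0, 70.7 and 55.4 CPM in mutant ileum, against 111.4, 181.1, 106.8 and 145.6 CPM in control ileum in the same order of mice. The groups did not overlap here either, and the log2 fold change was -1.13 (SE 0.28, edgeR adjusted p = 0.0154). Without C134 and C154, which had the highest values of both genes, Abcg8 stood at -0.78 (edgeR adjusted p = 0.106) while Abcg5 still passed. With no low-count filter the adjusted p of Abcg8 in edgeR was 0.0601.

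Abca1 (ENSMUSG00000015243) had 57.1, 72.5, 71.8 and 42.1 CPM in mutant ileum, against 105.8, 224.6, 129.0 and 137.0 CPM in control ileum. No library overlapped, although C134 lay well above the other 3 controls. The log2 fold change was -1.26 (SE 0.27, edgeR adjusted p = 0.00756). Abcg1 (ENSMUSG00000024030) is a related transporter with high levels in macrophages. It had 6.33, 7.51, 10.4 and 7.04 CPM in mutant ileum, against 16.4, 18.0, 17.7 and 20.3 CPM in control ileum. Every mutant library lay well below the controls. Its log2 fold change was -1.18 (SE 0.16, edgeR adjusted p = 3.19e-04). Abcg5, Abca1 and Abcg1 passed the test in the ileum in each of the 17 alternative settings tried, with adjusted p of at most 0.0229, 0.0491 and 0.00481.

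Among the receptors, Nr1h2 (ENSMUSG00000060601) had 46.7, 36.7, 45.4 and 47.1 CPM in mutant ileum, against 66.0, 63.5, 52.3 and 56.0 CPM in control ileum. The groups were separate but close, at a log2 fold change of -0.40 (SE 0.11, edgeR adjusted p = 0.0140). Nr1h3 (ENSMUSG00000002108) had 26.2, 16.4, 31.6 and 26.4 CPM in mutant ileum, against 28.8, 37.6, 24.9 and 30.3 CPM in control ileum. These ranges overlapped, with a log2 fold change of -0.25 and a 95% interval of -0.67 to 0.18 (edgeR adjusted p = 0.348). It shares 34 exon bases with Gm13783 in the annotation used for names, 1.35% of its exon length. Mylip (ENSMUSG00000038175) had 18.8, 15.8, 20.2 and 13.1 CPM in mutant ileum, against 25.6, 34.2, 25.5 and 28.9 CPM in control ileum. No library overlapped, and the log2 fold change was -0.72 (SE 0.15, edgeR adjusted p = 0.00458). Without C134 and C154 the adjusted p in edgeR was 0.0853 for Nr1h2 and 0.0509 for Mylip. For Nr1h2 it was 0.0615 without M167 and M177 and 0.0523 with a covariate for exocrine pancreas genes.

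Npc1l1 (ENSMUSG00000020447), the target of ezetimibe, had 461.0, 280.7, 484.7 and 402.6 CPM in mutant ileum, against 453.1, 922.4, 499.8 and 704.1 CPM in control ileum. The ranges overlapped, as C133 and C151 lay at the level of the mutants. The log2 fold change was -0.64 (95% interval -1.20 to -0.07, edgeR adjusted p = 0.0787). It passed in 3 of the 17 alternatives. These were without C133 (edgeR adjusted p = 0.0374), with all 16 libraries in 1 fit (0.0360) and in DESeq2 (0.0234). Without C134 and C154 Npc1l1 stood at -0.17 (edgeR adjusted p = 0.557), and with the exocrine pancreas covariate at -0.19 (0.468). Soat2 (ENSMUSG00000023045) had 22.5 to 63.4 CPM in mutant ileum and 34.7 to 88.2 CPM in control ileum, at a log2 fold change of -0.32 (95% interval -1.27 to 0.64). Scarb1 (ENSMUSG00000037936), the HDL receptor SR-BI, had 8.55 to 13.9 CPM in mutant and 9.49 to 13.2 CPM in control ileum, at a log2 fold change of -0.08 (95% interval -0.44 to 0.29). The interval of Soat2 holds changes of more than 1 log2 unit downwards, so a change of that size in Soat2 could not be told from none at this spread.

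Cell type markers differed between the ileum groups beside these genes. Absorptive enterocyte markers summed to 10478 to 20601 CPM in mutant and 20067 to 30219 CPM in control ileum, with the M168 library above those of C133 and C151. Of the 10 markers 4 were called lower in edgeR. The median log2 fold change of these markers was -0.64, close to the -0.68 of the 10 genes described here. T cell genes summed to 11.0 to 19.6 CPM in mutant and 40.7 to 76.4 CPM in control ileum, and macrophage and dendritic cell genes to 160.2 to 201.4 CPM in mutant and 228.8 to 290.0 CPM in control ileum. B cell and follicle genes summed to 3.99 to 7.20 CPM in mutant and 8.82 to 175.4 CPM in control ileum. By the same test 8 of 8 T cell, 8 of 10 macrophage and dendritic cell and 6 of 8 B cell markers were lower. Of the macrophage and dendritic cell markers 1 was called higher. None of the markers in these 4 lists was at 0 in either ileum group. The part of these differences in the levels of the 10 genes was not tested.

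In mutant duodenum 2 of the 10 genes were lower than in control duodenum, Abcg5 and Nr1h3, and none was higher. Over all tested genes 5.11% were called lower and 8.55% in either direction. At an unadjusted p under 0.05 edgeR had 4 lower and 1 higher, DESeq2 called 3 lower and 1 higher after adjustment, and limma-voom 2 lower and 0 higher. The median log2 fold change of the 10 genes was -0.37, against 0.02 over all tested genes. Immune cell markers differed between the duodenum groups as well. T cell genes summed to 39.6 to 68.9 CPM in mutant and 82.4 to 112.6 CPM in control duodenum, and 5 of 8 were called lower in edgeR. Macrophage and dendritic cell genes summed to 259.0 to 324.0 CPM in mutant and 389.0 to 465.6 CPM in control duodenum, and 8 of 10 were called lower. None of these markers was at 0 in either duodenum group. Absorptive enterocyte markers overlapped, at 30280 to 49887 CPM in mutant and 35113 to 43269 CPM in control duodenum, and none of the 10 was called in edgeR. The median log2 fold change of these markers was -0.26, against -0.37 for the 10 genes described here. The part of the immune and enterocyte markers in the duodenal levels of the 10 genes was not tested.

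Abcg5 had 178.4, 149.6, 189.8 and 97.4 CPM in the duodenum of M136, M167, M168 and M177, against 258.2, 254.2, 237.6 and 262.8 CPM in control duodenum. The controls lay within a narrow band and every mutant was below it. The log2 fold change was -0.70 (SE 0.18, edgeR adjusted p = 0.0388). Abcg8 had 217.5, 156.9, 228.5 and 116.4 CPM in mutant and 253.6, 256.0, 259.2 and 276.5 CPM in control duodenum. Its groups did not overlap, but it did not pass the test, at -0.52 (SE 0.19, edgeR adjusted p = 0.0983), except without M168 (0.0472). Nr1h3 had 36.8, 32.6, 34.8 and 29.7 CPM in mutant and 50.1, 67.4, 44.3 and 47.2 CPM in control duodenum. Its groups were separate, at a log2 fold change of -0.63 (SE 0.14, edgeR adjusted p = 0.0236). Nr1h2 was also separate, with 59.4 to 70.7 CPM in mutant and 72.3 to 92.9 CPM in control duodenum, at -0.35 (SE 0.11, edgeR adjusted p = 0.0757). Its adjusted p was 0.0483 in DESeq2 and 0.0429 with all 16 libraries in 1 edgeR fit.

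Both duodenal calls depended on the libraries used. With a covariate for exocrine pancreas genes the edgeR adjusted p was 0.245 for Abcg5 and 0.222 for Nr1h3, and without C134 and C154, whose duodenum had the least pancreatic RNA, it was 0.215 and 0.138. Without C133, C134, C151, C154 or M167 alone, the adjusted p of Abcg5 was 0.0812 to 0.0973. Without C133, M167 or M177 alone, that of Nr1h3 was 0.0519 to 0.0609, and without M167 and M177 together it was 0.137. The log2 fold changes stayed negative in all 17 alternatives, at -0.82 to -0.45 for Abcg5 and -0.70 to -0.45 for Nr1h3. In the duodenum of M177, where pancreatic genes summed to 185772 CPM, Abcg5, Abcg8, Soat2, Nr1h3 and Nr1h2 were at their lowest of the 8 duodenum libraries, and the part of pancreatic RNA in these levels was not tested beyond the covariate.

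The exporters Abca1 and Abcg1 and the ligase Mylip, lower in mutant ileum, did not pass in the duodenum. Mylip had 7.98, 11.3, 6.28 and 8.89 CPM in mutant duodenum, against 3.33, 4.72, 4.24 and 6.81 CPM in control duodenum. Its ranges overlapped only through M168 and C154, and its log2 fold change was 0.87 (SE 0.24, edgeR adjusted p = 0.0505). It passed in 5 of the 17 alternatives. These were without C154 (0.0319), without M168 (0.0303), with no low-count filter (0.0258), with all 16 libraries in 1 fit (0.0162) and in DESeq2 (0.00779). Without M167 and M177 Mylip stood at 0.59 (edgeR adjusted p = 0.277). Abcg1 had 5.51 to 10.00 CPM in mutant and 3.88 to 6.57 CPM in control duodenum, at a log2 fold change of 0.54 (SE 0.25, edgeR adjusted p = 0.186). Without M167 and M177 Abcg1 stood at 0.08 (0.880). Abca1 had 39.6 to 65.5 CPM in mutant and 35.3 to 60.5 CPM in control duodenum, at a log2 fold change of 0.00 (95% interval -0.45 to 0.45). Npc1l1 (-0.08, 95% interval -0.51 to 0.35), Scarb1 (-0.41, 95% interval -1.16 to 0.34) and Soat2 (-0.40, 95% interval -1.09 to 0.30) overlapped between mutant and control duodenum as well.

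**Figure D2:**
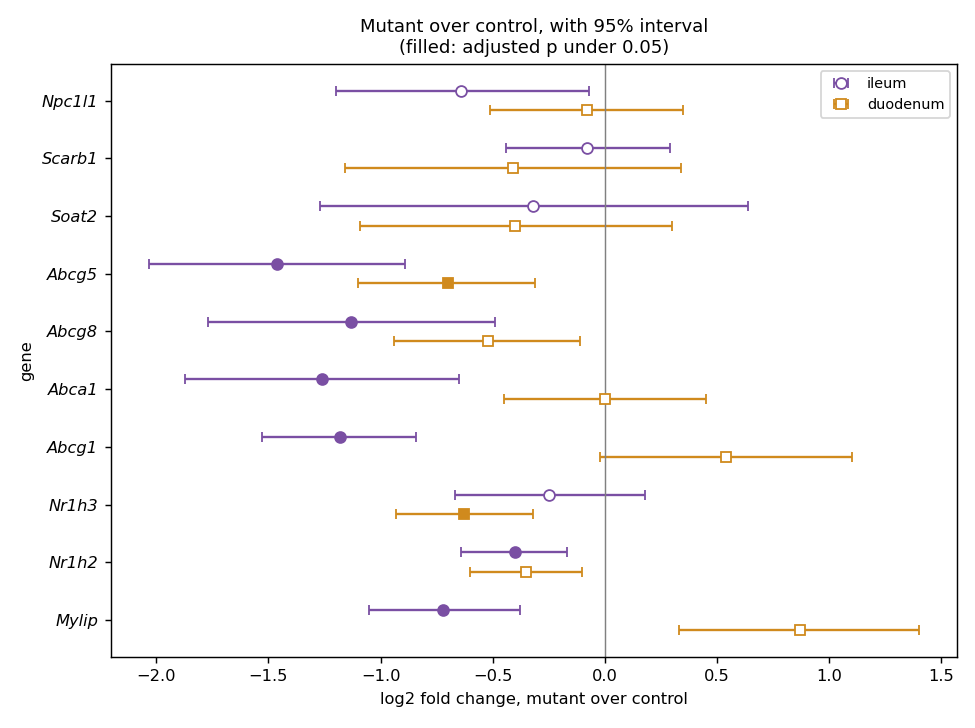
Log2 fold change, mutant over control, of the 10 genes in ileum (circles) and duodenum (squares), with 95% intervals and filled marks where the edgeR adjusted p was under 0.05. Abca1, Abcg1 and Mylip lay at -1.26, -1.18 and -0.72 in the ileum and at 0.00, 0.54 and 0.87 in the duodenum.

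The difference between the tissues in the effect of genotype was tested directly with all 16 libraries, as the ileum effect minus the duodenum effect. It was past the threshold for 3 of the 10 genes, all more negative in the ileum, where 4.13% of tested genes were called in that direction, 4.86% in the other and 8.99% in either. Abcg1 differed by -1.74 (SE 0.31, edgeR adjusted p = 0.00726), Mylip by -1.60 (SE 0.29, edgeR adjusted p = 0.00799) and Abca1 by -1.28 (SE 0.35, edgeR adjusted p = 0.0387) on the log2 scale. The duodenum and ileum libraries of a mouse share the animal. With the mouse as a block Abcg5 passed as well, at -0.76 (edgeR adjusted p = 0.0173), against -0.77 (0.126) without the block, and over all genes 4027 were called with the block and 1734 without it.

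These calls differed in how far they stayed past the threshold with fewer mice. Abca1 did not pass when any of the 8 mice was left out (edgeR adjusted p of 0.0543 to 0.0902). Its log2 difference stayed at -1.39 to -1.12 in those fits, against -1.28 with all mice. With no low-count filter Abca1 had an edgeR adjusted p of 0.0888. These fits had no mouse block. Abca1 passed in 5 of the 16 alternatives, among them that with the mouse as a block (-1.25, edgeR adjusted p = 8.90e-04). Abcg1 and Mylip passed without each single mouse. Without C134 and C154 none of the 10 genes passed (0.150 for Abca1, 0.0923 for Abcg1 and 0.0565 for Mylip) and 22 genes did over the whole table. Without M167 and M177 Abcg1 alone passed (0.0465), at -1.18, while Mylip was at -1.12 (0.0542) and Abca1 at -1.27 (0.124).

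In control mice the HDL-directed exporters and Mylip were higher in ileum than in duodenum, while the luminal efflux pumps, both LXRs, Scarb1 and Soat2 were lower. Of the 10 genes 3 were higher and 6 lower in ileum than in duodenum, where 28.0% of tested genes were called higher, 30.3% lower and 58.3% in either direction. Mylip was 2.59 log2 units higher (edgeR adjusted p = 7.57e-06), Abcg1 1.80 higher (1.31e-05) and Abca1 1.54 higher (0.00172). Abcg5, Abcg8, Nr1h3 and Nr1h2 were lower in ileum, with log2 fold changes of -0.96, -0.93, -0.77 and -0.47 (edgeR adjusted p of 1.48e-04, 4.52e-04, 0.00195 and 0.00326). Scarb1 had the steepest fall, with 9.49 to 13.2 CPM in control ileum against 53.4 to 147.1 CPM in control duodenum (log2 -3.20, edgeR adjusted p = 1.48e-04). Soat2 was lower by the same test at -0.97 (edgeR adjusted p = 0.0287), which was lost without C133 (0.0956), C151 (0.0633) or C154 (0.129) and with no low-count filter (0.0703). It passed in 8 of the 12 alternatives, among them that with the mouse as a block (-1.04, edgeR adjusted p = 5.87e-05). Npc1l1 stood at 0.14 (95% interval -0.39 to 0.67), and without C134 at -0.17 and without C134 and C154 at -0.38 (edgeR adjusted p = 0.0248). Ileal and duodenal libraries also differed in the cell type markers given above.

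In mutant mice 5 of the 10 genes differed between the tissues, 1 higher and 4 lower in ileum, where 12.9% of tested genes were called higher, 18.2% lower and 31.1% in either direction. Abcg5 (-1.72), Abcg8 (-1.55), Scarb1 (-2.88) and Nr1h2 (-0.54) were lower in mutant ileum than in mutant duodenum, and Mylip was higher by 0.99 (edgeR adjusted p of 0.00125, 0.00333, 1.14e-05, 0.00446 and 0.00341). Abca1 had 42.1 to 72.5 CPM in mutant ileum and 39.6 to 65.5 CPM in mutant duodenum, at a log2 fold change of 0.26 (95% interval -0.20 to 0.72). Abcg1 had 6.33 to 10.4 CPM in mutant ileum and 5.51 to 10.00 CPM in mutant duodenum, at 0.06 (95% interval -0.47 to 0.59). The higher ileal level of these exporters seen in control mice was thus not detected in mutant mice, and the genotype by tissue test above is the test of that difference. With the mouse as a block 8 of the 10 genes passed in mutant mice, with the addition of Soat2 (-0.90, edgeR adjusted p = 0.00143), Npc1l1 (-0.43, 0.0189) and Nr1h3 (-0.43, 0.0432).

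**Figure D3:**
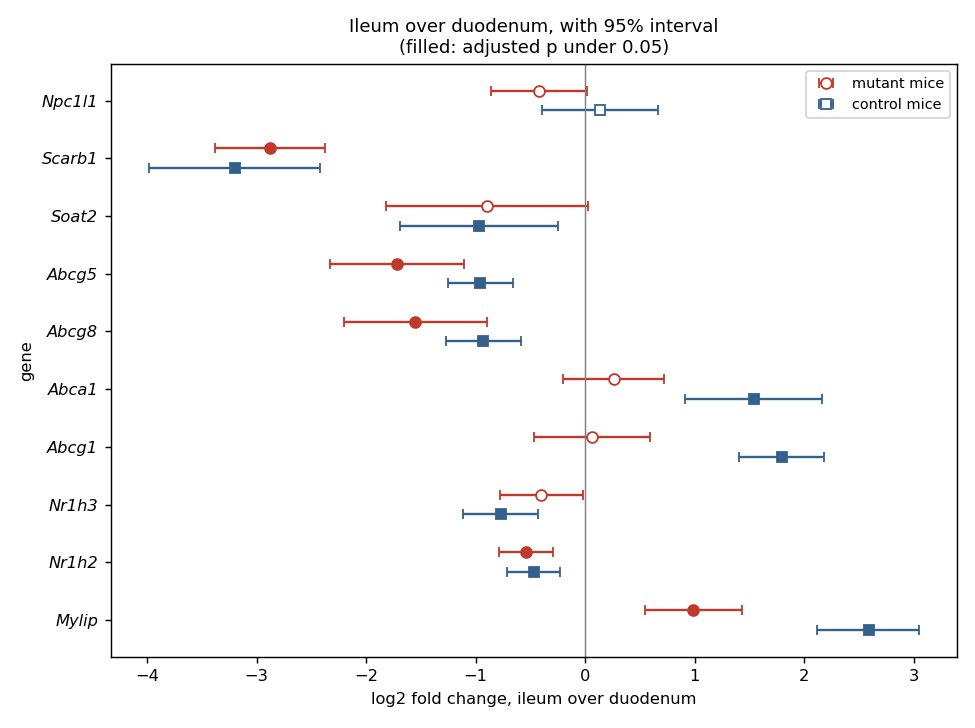
Log2 fold change, ileum over duodenum, of the 10 genes in mutant mice (circles) and control mice (squares), with 95% intervals and filled marks where the edgeR adjusted p was under 0.05. Abca1 and Abcg1 lay at 0.26 and 0.06 in mutant mice and at 1.54 and 1.80 in control mice.

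Abcg5 and Abcg8, which share the stretch printed above, were each other's nearest profile among 14223 genes with a mean of at least 1 CPM, by the root mean square difference of centred log2 CPM over the 16 libraries (0.183). The likeness includes group differences and library composition that all genes share. They were not identical. The ratio of Abcg8 to Abcg5 counts was 1.49, 1.15, 1.13 and 1.53 in mutant ileum, against 1.01, 1.11, 1.02 and 1.03 in control ileum, and every mutant ratio was above every control ratio. The mean ratio was 1.33 ± 0.216 in mutant and 1.04 ± 0.0457 in control ileum (SD, n = 4 each; exact two-sided permutation p = 0.0286, the smallest that 4 against 4 allows, and 0.0571 adjusted over the 2 tissues). In the duodenum the ratio was 1.22, 1.05, 1.20 and 1.20 in mutant against 0.982, 1.01, 1.09 and 1.05 in control libraries (exact two-sided permutation p = 0.0857). This ratio was examined after the values of both genes had been seen. The genes share 82 exon bases on opposite strands in the annotation used for names, which is 3.02% of the exon length of Abcg5 and 2.19% of that of Abcg8, and the strand setting of the counting is not given in the sources used here.

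For Nr1h2 the nearest profiles were Tmem8 (0.105) and Rxra (0.107), and Rxra encodes a retinoid X receptor with which LXRs pair. For Abca1 they were Clca3a2 (0.287) and Satb1 (0.320), for Abcg1 Tram2 (0.298) and 5430434F05Rik (0.316), and for Mylip Habp2 (0.339) and Acvr1c (0.349). For Npc1l1 they were Tmem59 (0.230) and March6 (0.237), for Soat2 Pla2g12b (0.216) and Faah (0.230), for Scarb1 Fth1 (0.281) and Ap1s3 (0.287), and for Nr1h3 Tmem179b (0.161) and Txndc15 (0.162). After Abcg8, the nearest to Abcg5 was Btnl7-ps (0.213), and after Abcg5 the nearest to Abcg8 was Clic5 (0.200). The root mean square variation of the members themselves ran from 0.354 (Nr1h2) to 1.55 (Scarb1). The differences are therefore not comparable between members, and a small one for a flat profile such as that of Nr1h2 says little.

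Other genes of the LXR circuit were followed in lists from general knowledge of the pathway. Of 14 tested further LXR targets, 4 were lower and 2 higher in mutant ileum, where 14.6% of all tested genes were called lower and 19.0% higher (median log2 fold change -0.27, against -0.03 over all genes). In mutant duodenum 2 of 13 were lower and none higher, where 5.11% of all genes were called lower and 3.44% higher (median -0.19, against 0.02). In the ileum Mertk, a phagocytic receptor of macrophages, averaged 74.6 ± 12.0 CPM in mutant and 157.6 ± 8.93 CPM in control (log2 -1.05, SE 0.12, edgeR adjusted p = 1.29e-04). Smpdl3a, a phosphodiesterase of the sphingomyelinase family, averaged 51.2 ± 10.6 CPM in mutant and 119.5 ± 9.77 CPM in control ileum (log2 -1.19, SE 0.14, edgeR adjusted p = 1.52e-04). Arl4c (-1.14, edgeR adjusted p = 0.00473) and Pltp, the phospholipid transfer protein (-0.73, 0.00765), were lower too. The 2 higher genes, named after their values were seen, were Fasn, the fatty acid synthase (0.96, edgeR adjusted p = 0.0242), and Apoc1, at under 1 CPM on average in both ileum groups (2.34, 0.0208). The rise of Fasn was lost without C133, C134, M167, M168 or M177 (edgeR adjusted p up to 0.154; here and below such a value is the highest over all alternatives of that call) and that of Apoc1 without C133, C151 or M168 (up to 0.0554). Arl4c was lost without C134 and C154 together (0.0611), while Mertk, Smpdl3a and Pltp passed in the ileum in each of the 17 alternatives. In the duodenum Apoe averaged 141.6 ± 21.4 CPM in mutant and 281.1 ± 26.4 CPM in control (log2 -0.97, SE 0.13, edgeR adjusted p = 0.00225), and Pltp stood at -0.63 (0.0331). Apoe passed in each of the 17 alternatives, and Pltp in the duodenum was lost without C133, C134, C154, M167 or M177 (up to 0.291). Mertk, Abca1, Abcg1, Pltp and Apoe are also expressed by macrophages, whose marker sums were lower in both mutant tissues as given above, and the part of this in these genes was not tested. In the genotype by tissue test 1 of the 14 was lower and 1 higher, where 4.13% and 4.86% of all genes were. Smpdl3a stood at -1.21 (edgeR adjusted p = 0.0133), which was lost without C134 and C154 or without M167 and M177 (up to 0.103). Apoc1, at under 1 CPM on average in each group, stood at 3.67 (SE 1.06, edgeR adjusted p = 0.0417), and this was lost without C133, C134, C151, M136, M168 or M177 (up to 0.109). With the mouse as a block 2 were lower and 2 higher.

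Of the 8 tested partners and coregulators of LXR, Rxra was lower in mutant ileum, at 164.7 ± 19.2 CPM against 212.3 ± 17.6 CPM in control ileum (log2 -0.34, SE 0.10, edgeR adjusted p = 0.0290), and the other 7 did not pass. It was lost without C133, C134 or M177 (up to 0.122). None of the 8 passed in the duodenum in edgeR, DESeq2 or limma-voom (edgeR adjusted p of at least 0.120), and 2 had an unadjusted p under 0.05 in edgeR. Of the 5 tested genes in a list of oxysterol enzymes, 1 was lower and 1 higher in mutant ileum. Over all genes 33.6% were called there in either direction. Cyp27a1, the sterol 27-hydroxylase, averaged 8.91 ± 1.45 CPM in mutant and 20.2 ± 4.48 CPM in control ileum (log2 -1.15, SE 0.17, edgeR adjusted p = 6.42e-04). This held in each of the 17 alternatives. Hsd11b1 was higher at 0.83 (0.0256), which was lost in 6 of the 17 alternatives, among them without C133, C134 or M177 (up to 0.157). In the duodenum none of the 5 passed in edgeR or limma-voom. Sult2b1, a sterol sulfotransferase, was the only 1 of them with an unadjusted p under 0.05 there, at 94.4 ± 31.3 CPM in mutant and 149.7 ± 13.1 CPM in control (log2 -0.65, edgeR adjusted p = 0.0773), and DESeq2 called 1 of the 5.

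The SREBP2 pathway, which turns on cholesterol synthesis and lipoprotein uptake when cell cholesterol is low, moved the other way. In mutant ileum 12 of its 14 tested genes were higher and none lower (median log2 fold change 0.95, against -0.03 over all genes, where 19.0% were called higher). In mutant duodenum 4 of 14 were higher and none lower (median 0.62, where 3.44% of all genes were called higher). Lss, the lanosterol synthase, averaged 80.6 ± 14.6 CPM in mutant and 28.4 ± 4.58 CPM in control ileum (log2 1.54, SE 0.15, edgeR adjusted p = 7.46e-05). It averaged 40.4 ± 11.0 CPM in mutant and 20.5 ± 3.13 CPM in control duodenum (log2 0.99, SE 0.18, edgeR adjusted p = 0.0119). Fdft1 (1.23), the squalene synthase, Cyp51 (1.20), the lanosterol demethylase, and Hmgcs1 (1.04), an early enzyme of the mevalonate pathway, were also higher in mutant ileum (edgeR adjusted p of 1.41e-04, 1.89e-04 and 3.35e-04). In mutant duodenum Mvk, the mevalonate kinase (0.99, edgeR adjusted p = 0.00709), Dhcr7 (0.40, 0.0234) and Idi1 (0.89, 0.0490) were higher as well. Idi1 was lost when any of the 8 mice was left out (up to 0.271) and Dhcr7 without C133, C134, C151 or M177 (up to 0.177), while Lss and Mvk in the duodenum passed without each single mouse. Without the mouse block no gene of this list passed the genotype by tissue test (0 of 14 in edgeR, DESeq2 and limma-voom, smallest edgeR adjusted p = 0.124), and 3 had an unadjusted p under 0.05 in edgeR. With the mouse as a block edgeR called 2 of the 14, both more positive in the ileum. Without C134 and C154 the counts were 9 in the ileum and 0 in the duodenum, with medians of 0.88 and 0.61, and with the exocrine pancreas covariate they were 10 and 1. Without C133, C134, C151 or M177 alone the duodenal count was 2, as it was without M167 and M177 together. It was 7 with no low-count filter and 8 with all 16 libraries in 1 fit, and DESeq2 had 9 higher and 1 lower.

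Lrp8 and Vldlr are lipoprotein receptors that MYLIP marks for degradation. Lrp8 averaged 8.11 ± 2.24 CPM in mutant and 2.65 ± 0.582 CPM in control ileum (log2 1.64, SE 0.23, edgeR adjusted p = 4.63e-04). Vldlr averaged 19.1 ± 7.85 CPM in mutant and 7.31 ± 1.36 CPM in control duodenum (log2 1.40, SE 0.29, edgeR adjusted p = 0.0249), while in the ileum it stood at 0.25 (0.209). Its genotype effect differed between tissues by -1.16 (edgeR adjusted p = 0.0435). Lrp8 passed in the ileum in each of the 17 alternatives. Vldlr in the duodenum was lost without M167 or M177 or any of the 4 control mice (up to 0.229), and its difference between tissues without any of those same mice, with no low-count filter and in limma-voom (up to 0.244). Transcript levels do not measure the amount of receptor protein, which is where MYLIP acts.

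The remaining lists are read against 33.6% of all genes called in either direction in the ileum and 8.55% in the duodenum. Of 6 tested genes that take part in NPC1L1 trafficking, 2 passed in the ileum and 1 in the duodenum. The membrane scaffold flotillin Flot1 (0.49, edgeR adjusted p = 0.00637) and Rab11a (0.47, 0.00915) were higher in mutant ileum and Flot2 (0.43, 0.0397) in mutant duodenum. Of 13 genes that move sterols inside the cell, Gramd1b (-0.87, edgeR adjusted p = 0.0165) and Gramd1a (-0.69, 0.00413), carriers of plasma membrane cholesterol to the endoplasmic reticulum, were lower and Stard5 (0.61, 0.0122) was higher in mutant ileum, and none passed in the duodenum in edgeR or limma-voom, against 1 in DESeq2 and 3 at an unadjusted p under 0.05. Of 7 genes of cholesteryl ester handling and lipoprotein export none passed in the ileum in edgeR or limma-voom, against 2 in DESeq2 and 3 at an unadjusted p under 0.05. Apob averaged 8355 ± 1748 CPM in mutant and 12195 ± 2790 CPM in control ileum (log2 -0.52, edgeR adjusted p = 0.0623). In the duodenum Nceh1, a cholesteryl ester hydrolase, was lower at -0.44 (edgeR adjusted p = 0.0309). Among 13 other nuclear receptors and regional factors, Pparg was higher (1.36, edgeR adjusted p = 0.00315) and Hnf4g lower (-0.49, 0.0249) in mutant ileum, and Nr1i2, the pregnane X receptor, was lower in mutant duodenum (-0.60, 0.0397). Flot1, Rab11a, Gramd1a and Pparg passed in the ileum in each of the 17 alternatives. Flot2, Nceh1 and Nr1i2 in the duodenum were each lost without C133, C134, C151, M167 or M177, Flot2 also without C154 or M168 and Nceh1 without C154 (up to 0.320, 0.237 and 0.187). Hnf4g was lost without C134, M168 or M177, among other alternatives (up to 0.142). Gramd1b and Stard5 were lost without C134 and C154 together and with the exocrine pancreas covariate (up to 0.106 and 0.102). Gramd1b was also lost without M167 and M177 together and with no low-count filter. Gata4, whose family reads the AGATAA letters, averaged 24.7 ± 10.6 CPM in control ileum and 215.2 ± 9.79 CPM in control duodenum (log2 -3.11, edgeR adjusted p = 3.66e-05). Between genotypes in the duodenum it stood at -0.31 (edgeR adjusted p = 0.152). The part of Gata4 in the levels of Abcg5 and Abcg8 was not tested.

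**Figure D4:**
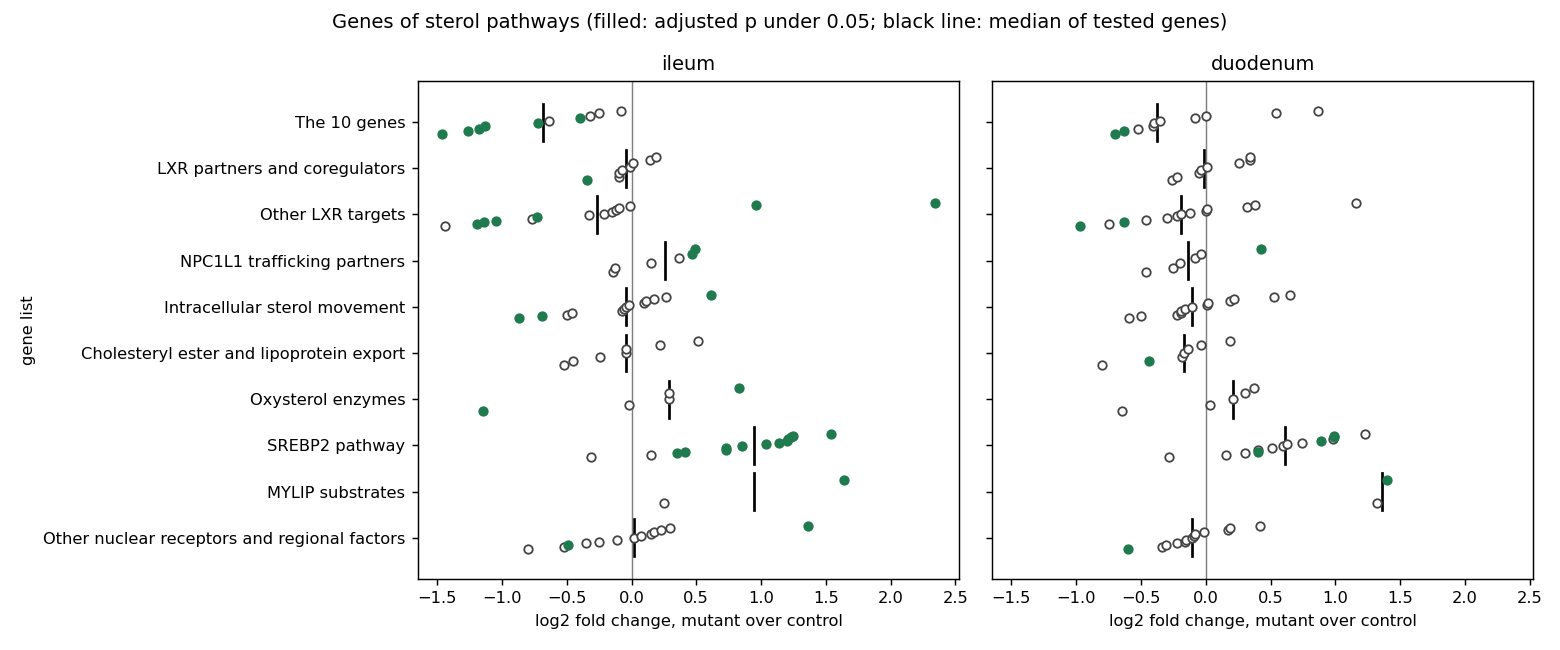
Log2 fold change, mutant over control, of every tested gene of the 10 described here and of 9 further lists, in ileum (left) and duodenum (right), filled where the edgeR adjusted p was under 0.05, with a black line at each list's median. In the ileum the 10 genes had a median of -0.68 and the SREBP2 list of 0.95, and in the duodenum these were -0.37 and 0.62.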

How the data were processed

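Stranded total RNA libraries depleted of ribosomal RNA were made from 500 ng of RNA, per the labels' protocols. The submitters' processing notes name STAR 2.5.3a, HTSeq 0.6.1p1, cutadapt 1.10 and Bowtie2 2.2.8, and the build mm39. The authors deposited raw read counts per Ensembl gene, which were used as they stand. Neither the strand setting nor the annotation release is given in the sources used here. Symbols and exon lengths came from GENCODE M21 (GRCm38), used for names and lengths only, and 52083 of 55359 identifiers had a symbol. Rows without a symbol held 1.02% of counts.

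Totals were 40.9 to 67.2 M counts, and no pair of libraries was identical. CPM used TMM factors (trimmed mean of M values) over the 16 libraries. Each comparison was fitted with edgeR 4.0.16 (limma 3.58.1, R 4.3.3): filterByExpr, TMM, robust quasi-likelihood F test, and Benjamini-Hochberg adjustment over all tested genes, with a threshold of 0.05. Genotype was fitted within each tissue, tissue within each genotype, and their interaction on all 16 libraries. Titles carry the same mouse numbers in both tissues. Residuals of same-numbered libraries correlated at r of 0.221 to 0.481, above 0.1 in all 8 mice, so the numbers were taken to pair the tissues, although M168 correlated slightly more with another mouse (0.26) than with itself (0.253).

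The 10 genes and the lists were chosen with earlier results of these data known. Some genes of these pathways were left out of the lists and are not reported here. Named are the 10 genes, Neurog3, up to 4 genes with the smallest p per list and comparison described, and the 2 nearest profiles of each member. Others are said to be chosen after their values were seen. Alternatives were limma-voom, the Wald test of DESeq2 1.42.0, its size factors within edgeR, no low-count filter or 1 CPM in 4 libraries, all 16 libraries in 1 fit, the mouse as a block, each mouse left out, C134 and C154 or M167 and M177 left out, and an exocrine pancreas covariate. The fits were also tested on simulated data.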

Additional observations from a re-analysis of the deposited data

Results flagged for a closer look

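The effect of genotype differed between ileum and duodenum, by the test of that difference in edgeR, for Abca1 (-1.28 on the log2 scale), Abcg1 (-1.74) and Mylip (-1.60), each more negative in the ileum. All 3 log2 effects in the duodenum were at or above 0. Nr1h2 in the ileum of mutant mouse M167 was 36.7 CPM, the lowest of its group of 4 by a wide gap, with the other 3 at 45.4 to 47.1 CPM. It was the only such value in the 40 groups of 4 libraries examined, where chance marks about 1 in 20.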

How the results depend on the processing

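Of 740 alternative values of the 10 genes over the 5 comparisons, 663 kept their direction and their side of the threshold, 38 lost a call, 17 gained a call and 22 changed sign. For the 10 genes the mouse block changed no other call than those named above. Without C134 and C154 the numbers of the 10 genes called were 0 in the duodenum, 3 in the ileum and 0 for genotype by tissue, and those of all genes were 200, 4067 and 22. Without M167 and M177 they were 1 in the duodenum (445 over all genes) and 1 for genotype by tissue. The pancreas covariate gave 0 in the duodenum (232 over all genes), the DESeq2 Wald test gave 4 there (2955 over all genes, and 3187 for genotype by tissue), and all 16 libraries in 1 fit gave 2491 over all genes there. With the mouse block 8 genes were called between tissues in mutant mice, and 4027 of all genes for genotype by tissue. With 1 mouse left out, 0 to 4 of the 10 genes were called in the duodenum, with 476 (without C151) to 2139 of all genes there and 184 (without C151) to 2009 for genotype by tissue. The cause of these shifts was not tested. No value that changed sign was called in the fit as reported. With 1 mouse left out, Npc1l1 ranged over -0.23 to 0.01 in the duodenum and -0.17 to 0.39 between tissues of control mice, Scarb1 over -0.22 to 0.02 in the ileum, Soat2 over -0.56 to 0.03 in the ileum and -0.02 to 0.26 for genotype by tissue, Abca1 over -0.14 to 0.11 in the duodenum and Abcg1 over -0.24 to 0.27 between tissues of mutant mice. Without M167 and M177, Npc1l1 and Soat2 in the duodenum reached 0.12 and 0.04, and Scarb1 and Soat2 in the ileum 0.04 and 0.14. Without C134 and C154, Soat2 in the ileum reached 0.22 and Npc1l1 between control tissues -0.38. Soat2 in the ileum was 0.18 with the covariate, and Abca1 in the duodenum was -0.01 with no low-count filter and in 1 fit. Libraries held 40.9 to 67.2 M counts, and how far counting error and the spread between mice each limit the precision was not separated.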
